A study of Mus musculus with 10 samples.

Results

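Scavenger and efferocytosis receptors are surface proteins with which phagocytes take up modified lipoproteins, microbes, cell debris and dying cells. The set described here holds 10 genes, Msr1, Marco, Cd36, Mrc1, Cd163, Olr1, Cd68, Stab1, Axl and Mertk. They were chosen by name from knowledge of the family, with earlier results of these data known, and matched by symbol. All 10 were found among the 29893 genes of the data. RNA was sequenced from CCR2+ monocytes and from neutrophils, both isolated by fluorescence-activated sorting from the lungs of NOD/scid mice that carried a breast tumour to end point. NOD/scid mice lack functional T and B lymphocytes, and every group came from tumour-bearing mice. The groups are monocytes with tumour HCl-002 (TN2, low metastatic per the labels, 3 libraries), monocytes with HCl-001 (TN1, highly metastatic, 2 libraries), neutrophils with TN2 (3 libraries) and neutrophils with TN1 (2 libraries). Libraries are named by tag number. The tags tag_367, tag_706 and tag_1341 belong to TN2, tag_191 and tag_482 to TN1, and each tag occurs once per cell type. The labels give no age or sex, and do not state that tags are separate animals or whether animals were pooled, so the p-values measure only the spread between these samples. Levels per library are given as CPM (counts scaled to a fixed library size after TMM normalization).

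The family is defined by what its members bind and not by shared descent. Msr1 and Marco are trimeric class A receptors for modified lipoproteins and bacteria, Cd36 is a class B receptor that also takes up fatty acids, and Olr1 (LOX-1) is a C-type lectin-like receptor for oxidised LDL. Mrc1 (CD206) is the macrophage mannose receptor, Cd163 takes up haemoglobin bound to haptoglobin, Cd68 is a heavily glycosylated protein of late endosomes and lysosomes, and Stab1 is a large receptor of macrophages and sinusoidal endothelium. Axl and Mertk are receptor tyrosine kinases of the TAM family, which bind phosphatidylserine on dying cells through the bridging proteins Gas6 and Pros1. In the lung, resident macrophages are known for many of these receptors, with Marco a marker of alveolar macrophages, and Cd36 is also made by capillary endothelium.

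Of the 10 genes, 9 had a promoter window in the RefSeq table for GRCm38.p6, from 250 bases before to 50 bases after the annotated start, and Msr1 was not among them. The 4 windows below are shown because they hold the matches to sites named for myeloid factors in members of both directions, Olr1 being lower and the other 3 higher in monocytes than in neutrophils. Capitals mark matches on either strand to the PU.1 core GAGGAA, which reads TTCCTC on the opposite strand, to the AP-1 site TGACTCA, which reads TGAGTCA on the opposite strand, or to the nuclear receptor core site AGGTCA, which reads TGACCT on the opposite strand. Cd68 lies at chr11:69666121-69666420 on the minus strand, Olr1 at chr6:129507116-129507415 on the minus strand, Mrc1 at chr2:14229164-14229463 on the plus strand and Axl at chr7:25788684-25788983 on the minus strand.
Cd68: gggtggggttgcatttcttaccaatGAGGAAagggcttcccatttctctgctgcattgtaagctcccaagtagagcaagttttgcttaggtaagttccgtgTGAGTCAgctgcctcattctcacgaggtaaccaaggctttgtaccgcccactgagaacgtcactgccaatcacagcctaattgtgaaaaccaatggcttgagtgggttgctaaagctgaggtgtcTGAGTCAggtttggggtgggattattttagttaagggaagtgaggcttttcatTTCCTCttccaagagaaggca
Olr1: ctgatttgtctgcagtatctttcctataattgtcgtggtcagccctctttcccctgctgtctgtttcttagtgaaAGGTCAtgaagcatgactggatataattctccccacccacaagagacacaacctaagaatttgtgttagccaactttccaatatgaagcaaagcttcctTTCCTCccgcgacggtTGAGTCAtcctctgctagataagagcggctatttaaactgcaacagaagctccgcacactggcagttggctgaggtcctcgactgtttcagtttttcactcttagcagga
Mrc1: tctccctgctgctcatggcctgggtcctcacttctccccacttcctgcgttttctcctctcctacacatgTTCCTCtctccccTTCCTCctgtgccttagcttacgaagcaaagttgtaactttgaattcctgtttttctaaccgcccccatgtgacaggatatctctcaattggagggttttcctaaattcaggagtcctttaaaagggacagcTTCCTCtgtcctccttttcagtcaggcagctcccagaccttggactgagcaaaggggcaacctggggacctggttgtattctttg
Axl: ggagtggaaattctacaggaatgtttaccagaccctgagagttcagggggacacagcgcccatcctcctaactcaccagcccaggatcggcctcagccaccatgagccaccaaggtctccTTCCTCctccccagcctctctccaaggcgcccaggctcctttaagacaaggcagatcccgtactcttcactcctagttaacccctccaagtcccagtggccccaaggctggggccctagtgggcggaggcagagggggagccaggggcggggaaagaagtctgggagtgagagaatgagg

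The AP-1 letters occurred in 2 of the 9 windows, with 2 copies in Cd68 and 1 in Olr1, against 5.20% of all 32851 windows. The PU.1 core occurred in 6 of the 9 (Cd68, Olr1, Mrc1, Axl, Marco and Stab1), against 28.3% of all windows, and Mrc1 held 3 copies of it. AGGTCA was found in the windows of Olr1 and Cd36, against 16.3% of all windows. The Maf site letters TGCTGA was found in Cd36 and Stab1 (19.5% of all windows) and the C/EBP letters TTNCNNAA in 5 members (40.7% of all windows). None of the 9 windows held CACGTG (7.15% of all windows), the STAT letters TTCNNNGAA (8.30%) or TATAAA (13.6%). All motifs were searched on both strands. These are matches of letters, and binding was not measured.

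Libraries held 7239218 to 10170794 estimated counts in monocytes and 8788542 to 11311370 in neutrophils. Summed markers placed every library with its label: 12 neutrophil markers summed to 1217 to 2693 CPM in monocytes and 76792 to 103801 CPM in neutrophils, and 12 monocyte markers to 3427 to 7747 CPM in monocytes and 1750 to 3201 CPM in neutrophils. Some libraries stood apart. Among monocytes, TN2 tag_706 had the highest endothelial sum (10 markers, 2077 CPM against 25.7 to 229 CPM in the others) and the highest stromal sum (10 markers, 2105 CPM against 6.65 to 163 CPM). Among neutrophils, TN2 tag_1341 had the highest monocyte marker sum, and both TN1 tag_482 libraries had the fewest detected genes of their cell type. TN1 tag_482 monocytes also had the highest dendritic cell sum of the monocyte libraries (1503 CPM against 222 to 424 CPM). Their erythroid sum was highest too (176 CPM against 0 to 23.8 CPM). Genes of the mitochondrial genome took 19.9% of TPM in TN1 tag_482 monocytes, where the other 4 monocyte libraries had 4.82% to 5.82%. They took 3.0% in TN1 tag_482 neutrophils, where the other 4 neutrophil libraries had 0.283% to 0.813%. The part of this share in the differences between the cell types was not tested. In RNA from sorted populations, fewer cells of a type and less RNA per cell cannot be told apart.

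**Figure D1:**
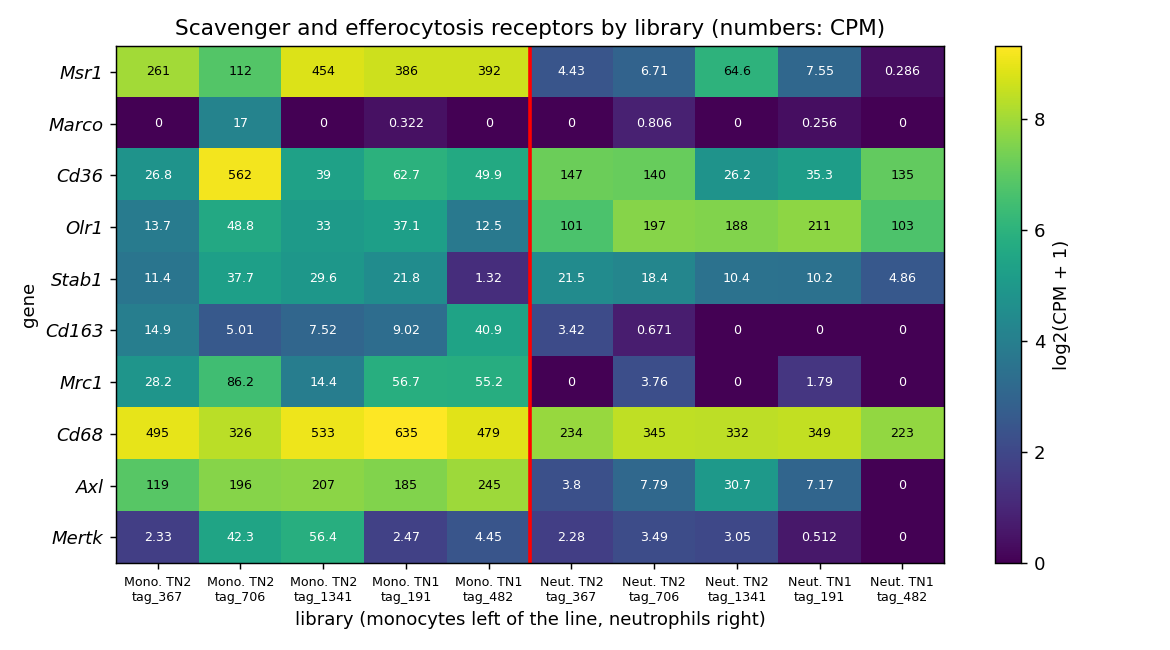
Level of the 10 receptor genes in each library, as the number of CPM in each field and as colour on the log2(CPM + 1) scale. Monocyte libraries stand left of the red line and neutrophil libraries right of it, TN2 before TN1 within each. Msr1, Mrc1, Cd163 and Axl were higher in all 5 monocyte libraries than in any neutrophil library, and Olr1 was lower in all 5.

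Monocytes differed from neutrophils in 7 of the 9 receptor genes that had counts enough to be tested, and 6 of these were higher in monocytes: Msr1, Mrc1, Cd163, Cd68, Axl and Mertk. Olr1 was the 1 gene lower in monocytes, and Cd36 and Stab1 did not pass (edgeR, adjusted p under 0.05 over 13384 genes, 5 libraries per cell type). The remaining gene, Marco, was too low to test. Across all genes tested, 15.5% were higher in monocytes and 12.4% lower, 27.9% in all. The median log2 difference of the 9 tested receptor genes was 3.59, against 0.46 over all genes. Levels did not overlap between the cell types for 4 members that were higher (16% of all genes) and for 1 that was lower (12.6% of all genes). The count of 7 fell to 3 (Msr1, Olr1 and Axl) when both TN1 tag_482 libraries were left out, and to 4 without the TN1 tag_482 neutrophil library alone.

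Msr1, the class A receptor also called SR-A1 (chromosome 8, 39581685 to 39642673), had 261, 112 and 454 CPM in TN2 monocytes (tag_367, tag_706 and tag_1341) and 386 and 392 CPM in TN1 monocytes (tag_191 and tag_482). In neutrophils it had 4.43, 6.71 and 64.6 CPM with TN2 and 7.55 and 0.286 CPM with TN1, in the same order of tags. Every monocyte library thus stood above every neutrophil library, and the neutrophil library TN2 tag_1341 stood far above the other 4. The log2 difference was 5.04 ± 1.04 (SE, edgeR adjusted p = 0.0059), with means of 321 ± 136 CPM in monocytes and 16.7 ± 26.9 CPM in neutrophils (SD, n = 5 each), a 19.2-fold ratio. Without neutrophil library TN2 tag_1341 the log2 difference was 6.12, and without TN1 tag_191 neutrophils, which leaves tag_482 with its 2 Msr1 counts alone in its group, 6.90. Both annotated coding transcripts were read: Msr1-201 held 50.4% to 65.9% of the gene's TPM in monocytes.

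The neutrophil libraries with more Msr1 were also those with a higher sum of monocyte markers. Summed over the 12 monocyte markers, TN2 tag_1341 neutrophils stood at 3201 CPM, TN1 tag_191 at 2328, TN2 tag_706 at 2205, TN2 tag_367 at 2005 and TN1 tag_482 at 1750 CPM, which is the order of their Msr1 levels. The defining marker Ccr2, a chemokine receptor, had 78.6 CPM in TN2 tag_1341 neutrophils against 3.49 to 14.9 CPM in the other 4 neutrophil libraries. F13a1, which encodes a coagulation factor subunit, had 177 CPM there against 0.572 to 6.31 CPM. Among the other 4 these single markers did not keep the order of Msr1. Ccr2 was highest of the 4 in TN1 tag_482 (14.9 CPM), the library lowest in Msr1, and lowest in TN2 tag_706 (3.49 CPM). F13a1 had 1.54 CPM in TN1 tag_191 and 6.31 CPM in TN2 tag_706. Ly6c2, another marker of the list, had 12.7 to 23.2 CPM in the same 4. Most of the sum in these libraries thus came from other markers of the list. None of the 12 markers was at 0 in all neutrophil libraries. The part of monocyte RNA in the neutrophil values of Msr1 was not tested.

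**Figure D2:**
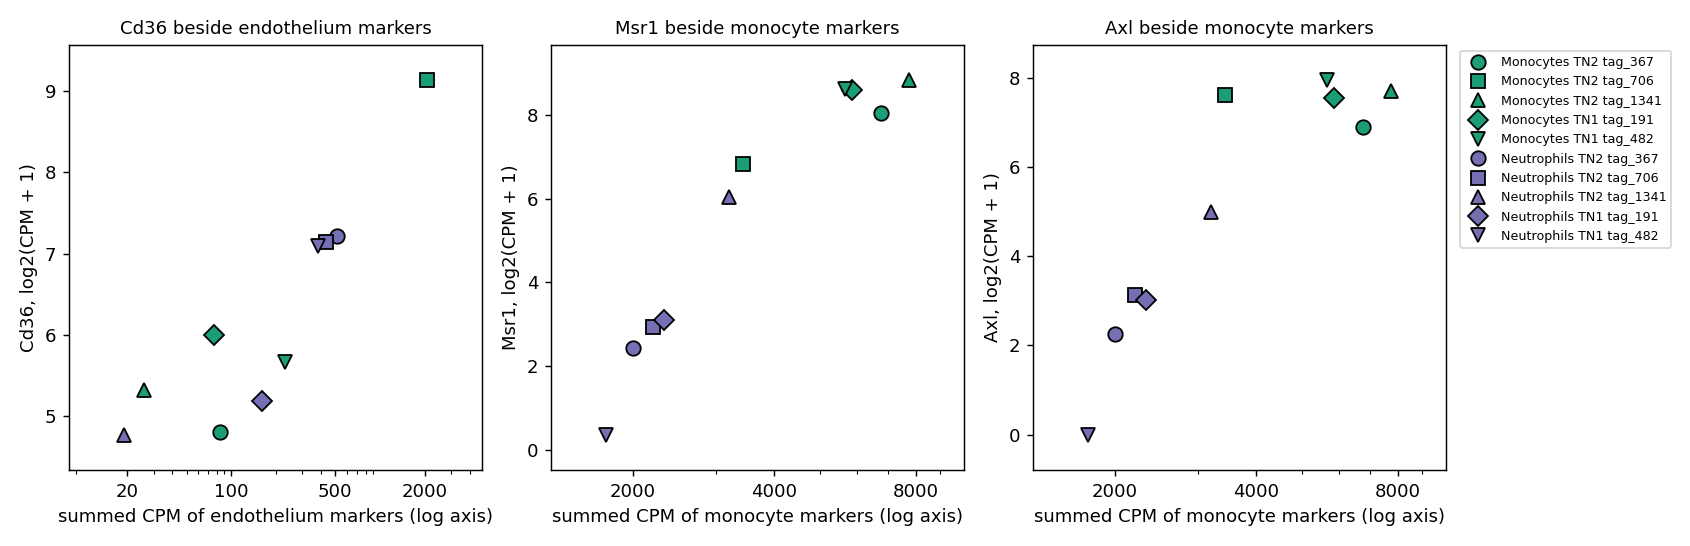
Cd36 beside the summed level of 10 endothelial markers, and Msr1 and Axl beside the summed level of 12 monocyte markers, with 1 point per library (log2(CPM + 1) against summed CPM on a log axis). Monocyte TN2 tag_706 is highest in Cd36 and in the endothelial sum, and neutrophil TN2 tag_1341 is the neutrophil library highest in Msr1, Axl and the monocyte sum.

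Marco (chromosome 1, 120474538 to 120505024), the class A receptor of alveolar macrophages, was nearly absent. It had 248 estimated counts (17.0 CPM) in monocyte library TN2 tag_706 and 3 counts in monocyte library TN1 tag_191. In neutrophils it had 6 counts in TN2 tag_706 and 2 in TN1 tag_191, and the remaining 6 libraries had 0. All 12 alveolar macrophage markers together were highest in monocyte library TN2 tag_1341, at 9332 CPM against 4774 CPM in TN2 tag_706, and Marco was at 0 in TN2 tag_1341. Chil3 made up most of both sums, and without it the other 11 markers summed to 844 CPM in TN2 tag_706, against 74.7 to 120 CPM in the other monocyte libraries. In neutrophils these 11 summed to 89.9 to 213 CPM. The endothelial sum was also highest in monocyte library TN2 tag_706, at 2077 CPM. Krt79, a keratin gene of alveolar macrophages, had 40.6 CPM in monocyte library TN2 tag_706 and 0 in the other 4 monocyte libraries. Marco was not tested, and the part of alveolar macrophages in this level was not tested.

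Cd36 (chromosome 5, 17781690 to 17888801), the fatty acid and oxidised lipoprotein receptor, had 26.8, 562 and 39.0 CPM in TN2 monocytes and 62.7 and 49.9 CPM in TN1 monocytes. Neutrophils had 147, 140 and 26.2 CPM with TN2 and 35.3 and 135 CPM with TN1. A single monocyte library, TN2 tag_706, stood above all neutrophil libraries, while the other 4 stood within the neutrophil range. The log2 difference between the cell types was 0.20 ± 0.85 (edgeR adjusted p = 0.886), and without monocyte library TN2 tag_706 it was -1.16. Endothelial marker sums ran the same way as Cd36 in neutrophils: 513 CPM in TN2 tag_367, 432 in TN2 tag_706, 385 in TN1 tag_482, 160 in TN1 tag_191 and 18.9 CPM in TN2 tag_1341. In monocytes TN2 tag_706 was highest in both, but the other 4 libraries did not follow. From the highest Cd36 to the lowest, their sums were 76.7 CPM in TN1 tag_191, 229 in TN1 tag_482, 25.7 in TN2 tag_1341 and 84.2 CPM in TN2 tag_367. Cdh5, the endothelial cadherin gene, had 84.4 CPM in TN2 tag_706 monocytes, and it was at 0 in the tag_1341 libraries of both cell types. Cd36 was at 39.0 CPM in those monocytes and 26.2 CPM in those neutrophils. The part of endothelial RNA in the Cd36 values was not tested.

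Olr1 (chromosome 6, 129485244 to 129507165), the lectin-like receptor for oxidised LDL whose promoter is printed above, was the member with the opposite direction. It had 13.7, 48.8 and 33.0 CPM in TN2 monocytes and 37.1 and 12.5 CPM in TN1 monocytes. Neutrophils had 101, 197 and 188 CPM with TN2 and 211 and 103 CPM with TN1. The lowest neutrophil library stood above the highest monocyte library. The log2 difference was -2.50 ± 0.47 (edgeR adjusted p = 0.0036), at means of 29.0 CPM in monocytes and 160 CPM in neutrophils. The call held without any single library, with log2 differences between -3.06 and -2.20. Per transcript length the ranges touched, at 4.33 to 29.2 TPM in monocytes and 26.4 to 64.0 TPM in neutrophils, and limma-trend on log2(TPM + 1) gave a log2 difference of -1.66 (adjusted p = 0.00828).

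Mrc1 (chromosome 2, 14229392 to 14332057), the mannose receptor, had 28.2, 86.2 and 14.4 CPM in TN2 monocytes and 56.7 and 55.2 CPM in TN1 monocytes. In neutrophils it was at 0 in 3 libraries, and had 3.76 CPM in TN2 tag_706 and 1.79 CPM in TN1 tag_191. All monocyte libraries stood above all neutrophil libraries. The log2 difference was 5.50 ± 1.43 (edgeR adjusted p = 0.0179), from 42 estimated counts in all neutrophil libraries together. The call was lost without neutrophil library TN1 tag_482 (adjusted p = 0.0559), and the log2 difference was 8.82 without TN2 tag_706 neutrophils and 8.58 without TN1 tag_191 neutrophils. The annotation places Mir511, a microRNA gene, within Mrc1 on the same strand.

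Cd163 (chromosome 6, 124304656 to 124330527), the haemoglobin scavenger receptor, was low but present in all monocyte libraries, at 14.9, 5.01 and 7.52 CPM with TN2 and 9.02 and 40.9 CPM with TN1. Neutrophils had 3.42 and 0.671 CPM in TN2 tag_367 and TN2 tag_706 and 0 in the other 3 libraries. The monocyte library TN1 tag_482 was the highest of all. Cd163 passed the test (edgeR adjusted p = 0.0106), with means of 15.5 CPM in monocytes and 0.819 CPM in neutrophils, an 18.9-fold ratio. The fitted log2 difference of 6.81 ± 1.52 rests on the prior count, since TN1 neutrophils held 0 counts. It was 7.81 without neutrophil library TN2 tag_367 and 6.13 without monocyte library TN1 tag_482.

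Interstitial macrophage markers, which include the complement gene C1qb, moved with Mrc1 and Cd163 between the cell types. The 12 markers summed to 541, 1536 and 793 CPM in TN2 monocytes and 487 and 456 CPM in TN1 monocytes, against 63.0 to 188 CPM in neutrophils, where 1 of the 12 was at 0 in all libraries. Within monocytes the sums did not follow Cd163, which was lowest (5.01 CPM) in TN2 tag_706, the library with the highest sum. Cd163 was highest (40.9 CPM) in TN1 tag_482, the library with the lowest sum. Mrc1 was highest (86.2 CPM) in TN2 tag_706 but lowest (14.4 CPM) in TN2 tag_1341, where the sum was 793 CPM. C1qb itself had 15.0 to 44.6 CPM in monocytes and 0 to 2.18 CPM in neutrophils. Another marker of the list, the hyaluronan receptor gene Lyve1, which lymphatic endothelium also makes, did not follow. It had 358 CPM in TN2 tag_706 monocytes and between 0.871 and 29.6 CPM in the remaining 4 from monocytes, against 5.49 to 95.7 CPM in neutrophils. Their part in the Mrc1 and Cd163 differences was not tested.

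Cd68 (chromosome 11, 69664213 to 69666153), the lysosomal glycoprotein and the most abundant member in both cell types, had 495, 326 and 533 CPM in TN2 monocytes and 635 and 479 CPM in TN1 monocytes. Neutrophils had 234, 345 and 332 CPM with TN2 and 349 and 223 CPM with TN1. The monocyte library TN2 tag_706 stood below 3 neutrophil libraries, and the other 4 stood above all of them. The log2 difference was 0.77 ± 0.24 (edgeR adjusted p = 0.0382), where the median over all genes was 0.46, and the call was lost in 8 of the 10 fits that left out a single library (adjusted p of 0.0169 to 0.18 over the 10). It held without neutrophil library TN1 tag_191 or monocyte library TN2 tag_706. Per transcript length the cell types did not overlap, at 579 to 884 TPM in monocytes and 217 to 315 TPM in neutrophils. On log2(TPM + 1) the difference was 1.47 by limma-trend (adjusted p = 0.000194), where the median of all genes was 0.69.

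Stab1 (chromosome 14, 31139013 to 31168641), the stabilin receptor for acetylated LDL and phosphatidylserine, had 11.4, 37.7 and 29.6 CPM in TN2 monocytes and 21.8 and 1.32 CPM in TN1 monocytes. Neutrophils had 21.5, 18.4 and 10.4 CPM with TN2 and 10.2 and 4.86 CPM with TN1. The cell types overlapped, and the lowest library was TN1 tag_482 in each. The log2 difference was 0.63 ± 0.71 (edgeR adjusted p = 0.534), or -0.99 without monocyte library TN1 tag_191. Many of these counts fell on transcripts annotated as retained intron, which held 47.4% to 83.4% of the Stab1 counts in monocytes and 63.2% to 100% in neutrophils. Protein-coding transcripts held 253 counts in TN2 tag_706 monocytes, the most of any library, and 0 in the TN2 tag_1341 and TN1 tag_482 neutrophils. The gene Nt5dc2 overlaps Stab1 by 112 bases on the other strand, and reads within those bases cannot be told apart without strand.

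**Figure D3:**
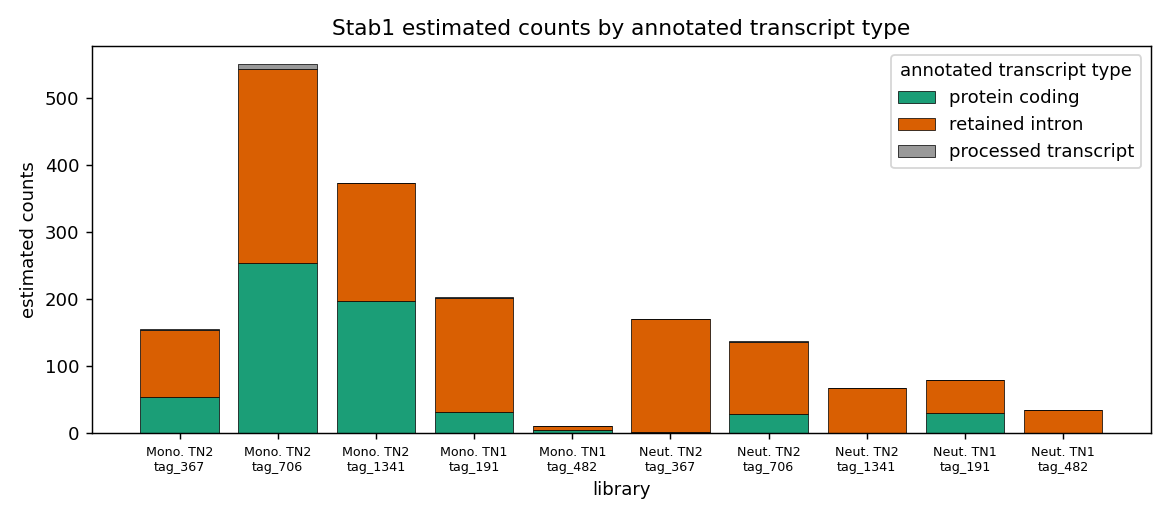
Estimated counts of Stab1 in each library, stacked by the annotated type of transcript (protein coding, retained intron, processed transcript), monocytes left and neutrophils right. Retained-intron transcripts hold more counts than coding ones in 9 of 10 libraries.

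The TAM kinase Axl (chromosome 7, 25757273 to 25788705) had 119, 196 and 207 CPM in TN2 monocytes and 185 and 245 CPM in TN1 monocytes. Neutrophils had 3.80, 7.79 and 30.7 CPM with TN2 and 7.17 and 0 CPM with TN1. The 5 monocyte libraries lay within a narrow range and above every neutrophil library. The log2 difference was 4.76 ± 0.96 (edgeR adjusted p = 0.00537), with means of 190 CPM in monocytes and 9.89 CPM in neutrophils, a 19.2-fold ratio, and the call held without any single library. Its highest neutrophil library was again TN2 tag_1341, the one with the most monocyte marker RNA, and without it the log2 difference was 5.40. Without TN1 tag_191 neutrophils it was 8.82, since the remaining library of that group had 0 counts. The main coding transcript Axl-201 held 68.4% to 92.6% of the gene's TPM in monocytes.

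Mertk (chromosome 2, 128698956 to 128802894), the TAM kinase used to define macrophages, split the monocyte libraries. It had 2.33, 42.3 and 56.4 CPM in TN2 monocytes and 2.47 and 4.45 CPM in TN1 monocytes, so that 2 TN2 libraries stood high and TN2 tag_367 stood with TN1. Neutrophils had 2.28, 3.49 and 3.05 CPM with TN2 and 0.512 and 0 CPM with TN1. The cell types overlapped, since the monocyte libraries TN2 tag_367 and TN1 tag_191 lay within the neutrophil range. The log2 difference between the cell types was 3.59 ± 0.99 (edgeR adjusted p = 0.0235). The call was lost when any of 4 libraries was left out singly, namely neutrophils TN1 tag_482 or TN2 tag_367 and monocytes TN1 tag_482 or TN2 tag_1341 (adjusted p up to 0.0681). It was also lost on log2(TPM + 1) with limma-trend (adjusted p = 0.0525), and without TN1 tag_191 neutrophils the log2 difference was 5.79. The 12 alveolar macrophage markers summed to 9332 CPM in TN2 tag_1341 and 4774 CPM in TN2 tag_706 monocytes, against 194 to 1747 CPM in the other 3. Most of this was Chil3, a chitinase-like protein gene also made by monocytes, and without it TN2 tag_1341 stood at 108 CPM, within the range of those 3, with Fabp4, Car4 and Krt79 at 0. Interstitial macrophage markers (12 genes) summed to 1536 CPM in TN2 tag_706 monocytes and 793 CPM in TN2 tag_1341 monocytes. They summed to 456 to 541 CPM in the other 3 monocyte libraries. C1qb of that list was instead highest in TN1 tag_482 monocytes (44.6 CPM), where Mertk had 4.45 CPM. The part of alveolar or interstitial macrophages in the Mertk values was not tested.

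**Figure D4:**
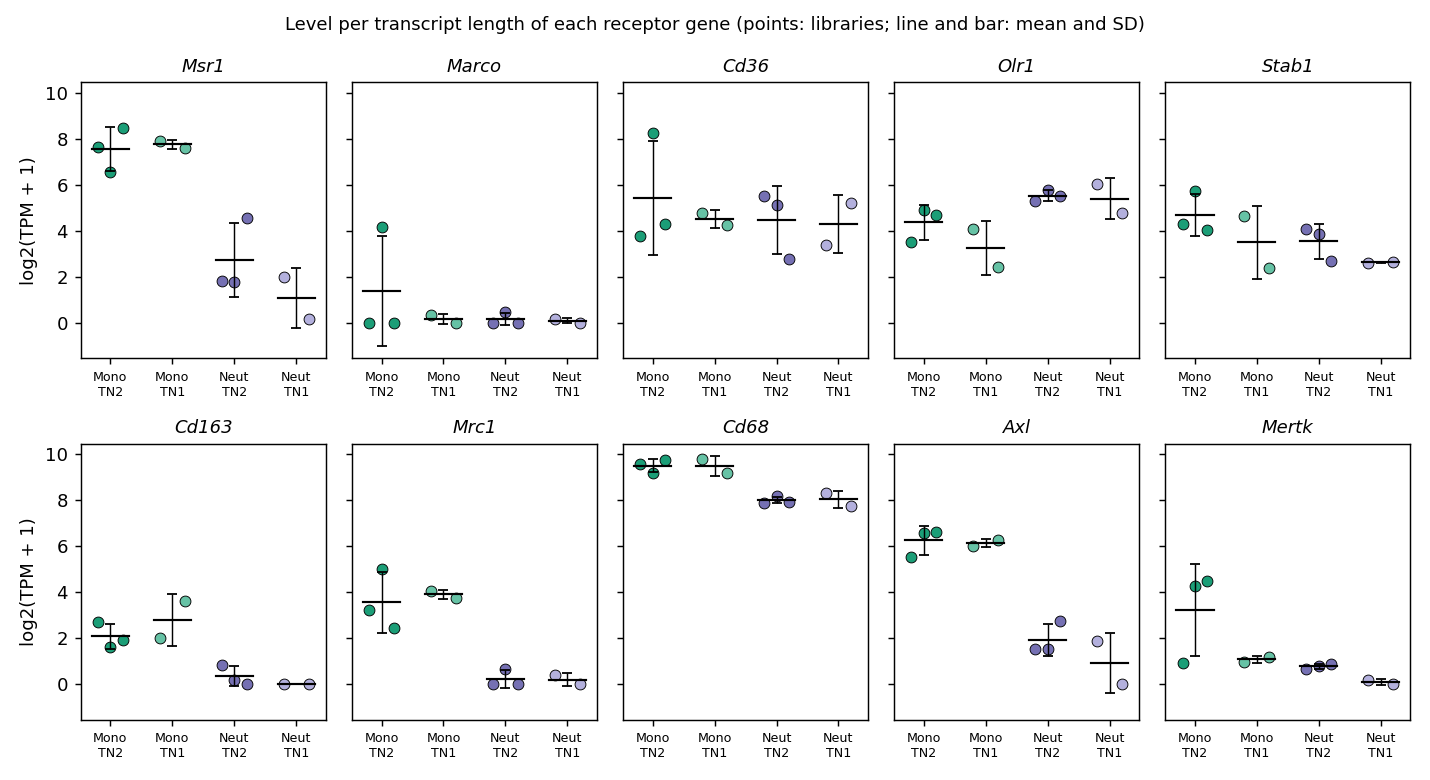
Level per transcript length of each receptor gene as log2(TPM + 1), with 1 point per library and the mean and SD of each group. Cd68 is highest in all groups, and Msr1, Axl, Mrc1 and Cd68 show monocyte groups above neutrophil groups, while Olr1 shows neutrophil groups higher.

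Levels can be compared between genes only per length, in TPM. In monocytes the order of the medians was Cd68 (752 TPM), Msr1 (199), Axl (76.4), Stab1 (18.4), Cd36 (18.3), Olr1 (15.7), Mrc1 (12.5), Cd163 (2.96), Mertk (1.27) and Marco (0 TPM). Cd68 stood above Msr1 in every library, and each later neighbour in that order overlapped the next across libraries. In neutrophils the medians were 245 TPM for Cd68, 44.0 for Olr1, 34.0 for Cd36, 5.34 for Stab1, 2.56 for Msr1, 1.91 for Axl and 0.584 TPM for Mertk, with Marco, Cd163 and Mrc1 at 0. There too Cd68 stood apart and each later neighbour overlapped the next. Of the 13384 tested genes, 159 had a higher median TPM than Cd68 in monocytes and 460 in neutrophils. For Stab1 the TPM rests in part on a processed transcript of 242 bases, which took a median of 35.3% of its TPM in monocytes.

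The labels set the lungs of mice with the low metastatic tumour TN2 against those with the highly metastatic TN1, in each cell type. None of the 9 tested receptor genes passed in either cell type, nor did any of the 13384 genes (edgeR, 0% called, 3 TN2 against 2 TN1 libraries). At an unadjusted p under 0.05, 1 member (Mertk) and 379 genes (2.83%) passed in monocytes, and 2 members (Mertk and Cd163) and 625 genes (4.67%) in neutrophils. DESeq2 called 0 members, and 22 genes in monocytes and 87 in neutrophils. The difference of the tumour effects between the cell types was called for 0 members and 0 genes by edgeR (472 genes, 3.53%, at an unadjusted p under 0.05) and for 0 members and 30 genes by DESeq2. The interval around each TN2 minus TN1 log2 difference of the members is wide, with SEs of 0.33 to 2.49 on the log2 scale. For the difference of tumour effects the SEs were 0.48 to 2.86.

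In monocytes, 4 of the 9 members had a positive TN2 minus TN1 value and 5 a negative one, with a median of -0.30 against 0.22 over all genes. Mertk had the largest, at 33.7 CPM in TN2 and 3.46 CPM in TN1 (log2 difference 3.28 ± 1.39, edgeR unadjusted p = 0.0405, adjusted p = 1), with TN2 tag_367, at 2.33 CPM, below both TN1 libraries. Cd36 averaged 209 CPM in TN2 and 56.3 CPM in TN1 (1.89 ± 1.29), and without TN2 tag_706 the value was -0.77. Cd163 averaged 9.16 CPM in TN2 and 25.0 CPM in TN1 (-1.45 ± 1.42), and 0.0027 without TN1 tag_482. For Msr1, Axl, Cd68, Mrc1 and Olr1 the log2 differences lay between -0.50 and 0.36, and Stab1 was at 1.18 ± 1.03, with 4.2 without TN1 tag_191 and 0.14 without TN1 tag_482. Levels of TN2 and TN1 monocytes overlapped for every member, while 12.4% of all genes stood higher in TN2 without overlap and 7.73% lower.

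In neutrophils, all 9 tested members had a positive TN2 minus TN1 value, with a median of 1.15 against 0.22 over all genes, and none passed. For Olr1 and Cd68 the value was below 0.1 and changed sign under other settings. Mrc1, at 0.47, was at -6.17 without TN2 tag_706 and -0.49 without TN1 tag_482, and Cd36, at 0.29, was at -0.36 without TN1 tag_191. Mertk and Stab1 did not overlap, with TN2 above TN1 (11.8% of all genes did so, and 5.91% stood lower in TN2 without overlap). Mertk averaged 2.94 CPM in TN2 and 0.256 CPM in TN1 neutrophils (log2 difference 3.43 ± 1.50, edgeR adjusted p = 0.943), from 64 estimated counts in TN2 and 4 in TN1. Stab1 averaged 16.8 CPM in TN2 and 7.55 CPM in TN1 (1.15 ± 1.04, edgeR adjusted p = 0.946). Neither separation held on protein-coding transcripts alone. Coding Mertk transcripts had 0.0702 TPM in TN2 tag_1341 and 0.0718 TPM in TN1 tag_191. In TN2 tag_1341, 17.4 of the 20 Mertk counts fell on a processed transcript. Stab1 had 2.39, 27.9 and 0 coding counts in TN2 and 29.4 and 0 in TN1.

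Msr1 averaged 25.2 CPM in TN2 and 3.92 CPM in TN1 neutrophils (log2 difference 2.67 ± 1.37, edgeR adjusted p = 0.943), and without TN2 tag_1341, the library rich in monocyte markers, the value was 0.49. Axl averaged 14.1 CPM in TN2 and 3.58 CPM in TN1 (1.96 ± 1.25, adjusted p = 0.943), and 0.68 without TN2 tag_1341. Axl was the 1 member to pass in any of the fits without a single library: leaving out TN1 tag_191 left a TN1 library with 0 Axl counts, and the adjusted p was then 0.0497. Cd163 had 32.2 estimated counts in TN2 neutrophils (27.2 in tag_367, 5 in tag_706 and 0 in tag_1341) and 0 in TN1. Pooled over libraries, the TN2 level was 7.25-fold that of a floor of 3 counts over the TN1 group. This bound leaves out the spread between libraries, and the edgeR adjusted p was 0.943. The Cd163 difference of tumour effects between the cell types had an unadjusted p of 0.0192 in edgeR and did not pass after adjustment.

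**Figure D5:**
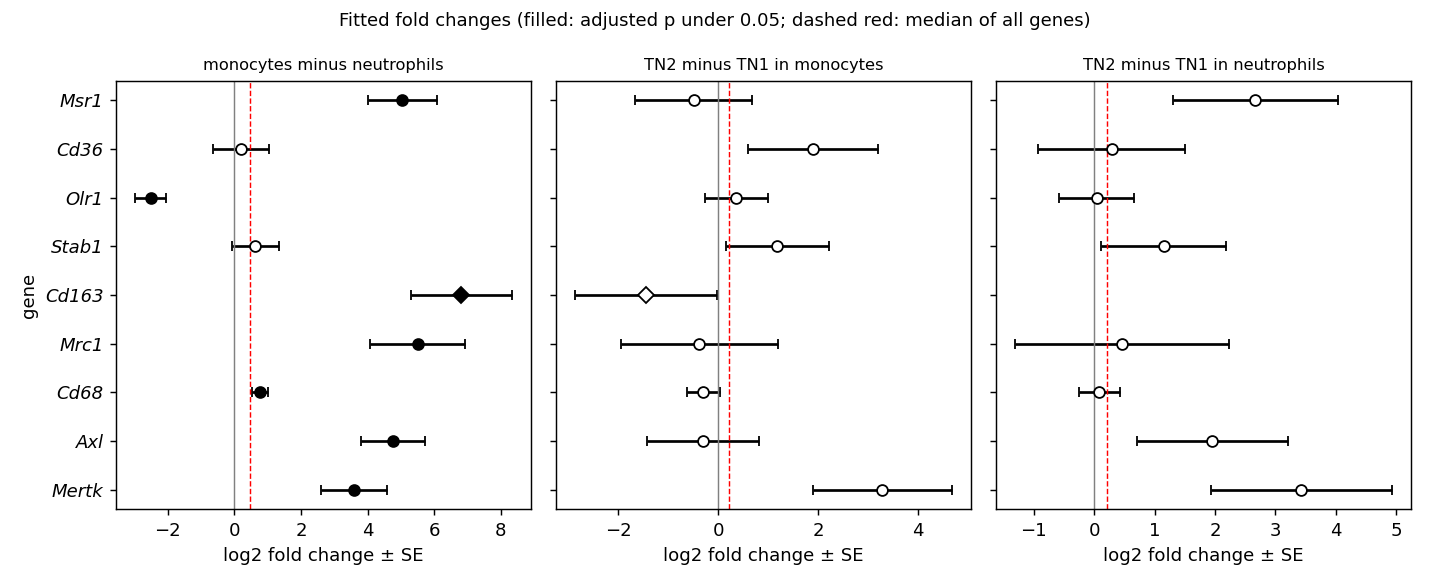
Fitted log2 fold change ± SE of the 9 tested receptor genes for monocytes minus neutrophils, TN2 minus TN1 in monocytes and TN2 minus TN1 in neutrophils, with filled symbols where the adjusted p (edgeR) was under 0.05 and the median of all genes as a dashed line. The Cd163 diamond depends on the prior count in the first panel and is left out of the third, where TN1 neutrophils held 0 counts. Filled symbols appear in the first panel for 7 genes and in neither tumour panel.

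In the authors' deposited table, the same 10 genes had adjusted p-values of 1 in both tumour comparisons. The smallest unadjusted p there was 0.0104, for Mertk in neutrophils, at log2 means of 0.768 in TN2 and 0.0897 in TN1, where that table gives no fold and marks the expression as insufficient. In monocytes the authors' deposited table gave Mertk a 4.47-fold higher level in TN2 than in TN1 (unadjusted p = 0.156).

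Other genes of the same uptake pathways were called in both directions between the cell types, as were all genes. Over all genes tested, 15.5% were higher in monocytes and 12.4% lower, with a median log2 difference of 0.46. Of 18 other scavenger receptor genes, 12 were tested, 5 were higher in monocytes and 2 lower, with a median log2 difference of 0.07. Cxcl16, which encodes the receptor SR-PSOX and a chemokine, averaged 251 ± 103 CPM in monocytes and 17.1 ± 5.70 CPM in neutrophils (log2 difference 4.01 ± 0.28, edgeR adjusted p = 5.09e-05). The lipoprotein receptor gene Lrp1 averaged 335 ± 78.4 CPM in monocytes and 57.7 ± 16.0 CPM in neutrophils (2.59 ± 0.26), and the class B receptor gene Scarb1 185 ± 33.8 and 25.6 ± 15.6 CPM (2.84 ± 0.35). Cd14, the lipopolysaccharide co-receptor, was lower in monocytes, at 5053 ± 1300 CPM against 36986 ± 9558 CPM in neutrophils (-2.88 ± 0.32).

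Among 20 genes of the TAM family, phosphatidylserine receptors and bridging proteins, 19 were tested, 8 were higher in monocytes and 5 lower, with a median of 1.84. Over all genes 15.5% were higher and 12.4% lower, with a median of 0.46. Timd4, a phosphatidylserine receptor of resident macrophages, had 1569 counts in monocytes and 1 in neutrophils, a ratio of 984 with a 95% counting interval of 176 to 38872. Trem2, a lipid-sensing receptor of macrophages, averaged 59.0 ± 25.8 CPM in monocytes and 1.96 ± 1.77 CPM in neutrophils (log2 difference 5.39 ± 0.72, edgeR adjusted p = 0.000593). Neutrophils had more Cd300lf, a lipid-binding inhibitory receptor (monocytes 151 ± 51.3, neutrophils 1253 ± 314 CPM), and more Anxa1, annexin A1 (monocytes 548 ± 165, neutrophils 3395 ± 705 CPM), with log2 differences of -3.09 ± 0.28 and -2.72 ± 0.25.

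The engulfment machinery list of 18 genes, all tested, had 4 higher and 5 lower in monocytes, with a median of -0.14 (15.5%, 12.4% and 0.46 over all genes). The GTPase genes Rac2 and Rhog were lower in monocytes (log2 differences -2.31 ± 0.21 and -2.38 ± 0.31), as was the exchange factor gene Vav1 (-1.27 ± 0.27), while the adaptor gene Elmo2 was higher (2.30 ± 0.37, edgeR adjusted p of 0.000104 to 0.00675 for the 4). Of 12 nuclear receptor and cholesterol efflux genes, 2 were higher in monocytes and 3 lower, with a median of 0.53, beside 15.5% higher, 12.4% lower and a median of 0.46 over all genes. Without both TN1 tag_482 libraries 1 of these was higher and 1 lower, and of the engulfment genes 4 were higher and 3 lower. Nr1h3, the oxysterol receptor LXR alpha, and Apoe, the lipid carrier, were higher (3.44 ± 0.94 and 2.31 ± 0.47), and the ligase gene Mylip and the receptor gene Rxra were lower (-2.23 ± 0.43 and -1.15 ± 0.31). Of 14 transcription factor genes of myeloid cells, 3 were higher and 6 lower, with a median of -0.40, beside the same shares and median over all genes. Spi1, which encodes PU.1, Nfe2l2 and Nr4a1 were lower in monocytes (-2.13 ± 0.24, -1.94 ± 0.25 and -2.10 ± 0.29). On log2(TPM + 1) with limma-trend the counts were 6 higher and 2 lower for engulfment, 5 and 1 for nuclear receptors and 5 and 3 for transcription factors, and Vav1 and Rxra did not pass. No gene of these 5 lists passed in either tumour comparison in edgeR.

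The genes most like each member were taken as the 3 with the highest Pearson correlation of log2(CPM + 1) over the 10 libraries, which share sort, depth and amplification. They were Shtn1, Fam129b and Snx5 for Msr1 (r of 0.99 each), Sparcl1, Pcolce2 and Cd81 for Cd36 (0.96 to 0.98), Vcpkmt, Haus7 and Ktn1 for Mrc1 (0.98 to 0.99), and Naa10, Eif3d and Thrap3 for Cd163 (0.97 to 0.99). For Olr1 they were Por, Rhbdf2 and Entpd1 (0.97 to 0.99), for Cd68 Cisd2, Prkag2 and A530064D06Rik (0.94 to 0.97) and for Stab1 Btrc, Cdk14 and Cbfa2t2 (0.93 to 0.95). Axl was most like Brix1, Ifi207 and Exosc9 (0.99 each), and Mertk, at lower values, like Tbx21, Kif26b and Tdrkh (0.92 to 0.93). The libraries cover both cell types, so a difference between the cell types enters each value.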

How the data were processed

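RNA of sorted lung monocytes and neutrophils was amplified by Smart-seq2, which adds no molecular identifiers, so PCR copies remain in the counts and intervals cover counting error only. Per the series' design text, the authors ran kallisto 0.42.3 against the GRCm38 transcriptome. The deposited tables give, per the file headers, an estimated count and a TPM value for each transcript. The authors' deposited comparison tables give log2 group means, a signed fold score and p-values made with AltAnalyze, and of the 10 receptor genes 9 had log2 means within 0.01 of the mean log2(TPM + 1).

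Gene sums over transcripts used the GENCODE annotation of the mouse, release 21 (81839 of 85276 matched, 29893 genes), and the sums of estimated counts were rounded. Libraries held 7239218 to 11311370 estimated counts, of which 1.94% to 3.59% fell on unmatched transcripts. The 4 groups were fitted together in edgeR 4.0.16 (filterByExpr by group with a minimum total of 10, TMM, quasi-likelihood F test, 6 residual degrees of freedom, R 4.3.3). Benjamini-Hochberg adjustment ran over all 13384 genes with a threshold of 0.05. SEs are the absolute log2 difference over the square root of F. Where a side held 0 counts, a floor of 3 counts over the group gave a bound. Alternatives used DESeq2 1.42.0, limma 3.58.1 on log2(TPM + 1) and log2(TPM + 0.1) for genes of at least 1 TPM in 2 libraries, other scalings and filters, length offsets, a tag block, and fits without libraries.

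The receptor genes, the pathway lists (other scavenger receptors, phosphatidylserine receptors, engulfment, nuclear receptors, transcription factors) and the marker lists were chosen with earlier results of these data known. The text names all 10 receptor genes and, of each pathway list, the 4 genes with the smallest p between the cell types, together with any that passed between tumours. One gene that this rule selects is not reported here. Libraries, markers or genes singled out beyond that rule, such as Ccr2, Ly6c2, F13a1, Cdh5, Krt79, Fabp4, Car4, C1qb, Lyve1 and Chil3, were picked after their values were seen. Marker lists of dendritic cells, epithelium, platelets, erythroid cells and lymphocytes were also summed. Dendritic cell markers reached 222 to 1503 CPM in monocytes and 6.72 to 26.2 CPM in neutrophils. Epithelial markers reached 45.7 to 589 CPM and 107 to 318 CPM, platelet markers 7.58 to 40.7 and 6.58 to 42.6 CPM, erythroid markers 0 to 176 and 0 to 6.44 CPM, and lymphocyte and NK markers 6.71 to 225 and 0 to 33.8 CPM, monocytes before neutrophils. The fit was tested on simulated counts.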

Additional observations from a re-analysis of the deposited data

Results flagged for a closer look

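Within the 5 libraries of a cell type, 6 of the 20 sets of values tested held a library whose gap to its nearest neighbour exceeded the 95% critical value of Dixon's test (0.71). Chance gives about 1 in 20 only for independent sets of normally distributed values. The values were CPM without a log, and the sets share libraries, so the count of 6 cannot be judged against that rate. Each set joins both tumours of a cell type. Msr1 had 64.6 CPM in neutrophil library TN2 tag_1341, against 7.55 CPM in the next neutrophil library. Axl had 30.7 CPM in the same library, against 7.79 CPM in the next. Cd36 had 562 CPM in monocyte library TN2 tag_706, against 62.7 CPM in the next monocyte library, and Marco had 17.0 CPM there, against 0.322 CPM in the next. Cd163 had 40.9 CPM in monocyte library TN1 tag_482, against 14.9 CPM in the next, and 3.42 CPM in neutrophil library TN2 tag_367, against 0.671 CPM in the next.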

How the results depend on the processing

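Of the 7 receptor genes called between monocytes and neutrophils, 7 were called with DESeq2 size factors, without a filter, with DESeq2's Wald test, on log2(TPM + 0.1) and with length offsets, 6 on log2(TPM + 1) and 3 without both TN1 tag_482 libraries. Fits without a single library called 4 to 7. Same-tag libraries of the cell types deviated together in 2 of 5 pairs (tag_706 and tag_1341, r over 0.1, with -0.0761 to 0.377 over the 5). Both TN1 pairs give the same value (0.09) by construction, since that group has 2 libraries. Different-tag TN2 pairs had r of -0.4115 to 0.228. The labels do not say what a tag is, so the tags were not taken to pair the samples in the main fit. A fit with the tag as a replicate block called 6 members and 3335 genes. There Mertk was lost (edgeR adjusted p = 0.0593) and Cd36 turned to -0.0841. On log2(TPM + 1), 4542 genes were higher and 1215 lower in monocytes (78.9% higher), against 2070 and 1663 (55.5%) in edgeR, and the median of all genes moved to 0.69, or 1.05 on log2(TPM + 0.1), against 0.46. Between tumours no setting called a member other than Axl, and fits without a single library called 0 to 1 in neutrophils. Without TN1 tag_191 neutrophils edgeR called 506 genes between tumours in neutrophils, and without TN1 tag_191 monocytes 128 in monocytes, where a lone TN1 library is assumed to vary like the other groups. Directions turned for TN2 minus TN1 values near 0. In monocytes these were Cd68 (6e-04 in both TPM settings), Axl (0.10 in both) and, without both tag_482 libraries, Olr1 (-0.27). In neutrophils they were Olr1 (-0.005 with DESeq2 size factors and with the Wald test), Cd68 (-0.0339 in both TPM settings), Mrc1 (-0.0872 on log2(TPM + 0.1)) and, without both tag_482 libraries, Mrc1 (-0.50), Olr1 (-0.40) and Cd68 (-0.23). Leaving out single libraries gave ranges that cross 0 for Cd36 (-1.16 to 0.83) and Stab1 (-0.99 to 1.04) between cell types. Between tumours the ranges were -2.15 to 0.0027 (Cd163), -0.36 to 1.24 (Olr1) and -0.77 to 2.16 (Cd36) in monocytes, and -0.36 to 1.58 (Cd36), -6.17 to 6.63 (Mrc1), -0.37 to 0.66 (Olr1) and -0.19 to 0.46 (Cd68) in neutrophils. The cause of these changes was not tested, and the fits without libraries also rest on fewer libraries. Neutrophil values of Marco, Mrc1, Cd163 and Mertk rest on few counts, 8, 42, 32.2 and 68 over all 5 libraries together.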
